A study of Rattus norvegicus with 12 samples.

Results

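Cytosolic ribosomal proteins are the protein subunits of the ribosome that translates nuclear-encoded messages. Their genes were taken from the deposited expression table by symbol: Rpl or Rps followed by a number and, for a few, a letter or copy number, with Rplp0 to Rplp2 and Rpsa added. The rule found 105 of the table's 22431 rows, carrying 79 symbols. It took 63 large subunit rows, 39 small subunit rows and 3 rows for the stalk. Of 77 canonical rat ribosomal protein symbols listed for this work, 68 had a row under this rule, and the other 9 (Rpl7, Rpl10, Rpl13a, Rpl27a, Rpl36, Rpl37a, Rpl41, Rps7 and Rps26) were not analysed here.

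A cytosolic ribosome has a small subunit, which reads the message, and a large subunit, which joins amino acids, and most of their proteins are present once in each ribosome. The transcripts are abundant in most cells, and many begin with a C followed by a run of pyrimidines, the 5′ terminal oligopyrimidine tract, through which mTOR signalling is known to adjust their translation. In neurons, ribosomes are found in dendrites as well as in the cell body. Mammalian genomes also carry many intronless copies of ribosomal protein transcripts, and several subunits have a second gene, a paralog, with its own expression pattern.

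The tissue was prefrontal cortex of wild-type (WT) rat offspring in early adolescence, with 12 libraries of poly(A) RNA in 3 groups of 4. The groups were controls given saline (Saline), offspring exposed to oxycodone after birth (PNO, postnatal) and offspring exposed in utero (IUO). The drug, an agonist of opioid receptors, was given by oral gavage at 15 mg/kg. The labels name a start before pregnancy or after it and an end at postnatal day 21. They do not state which window or which recipient belonged to which group. That end applies to IUO as well as to PNO, so exposure in IUO may not have stopped at birth. Every group came from 2 dams, with 2 offspring from each, and no label links an offspring to its dam, so p-values treat littermates as independent and may be too small.

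Total counts per library lay between 49227533 and 60672246. Markers of the striatum, which borders the cortex, had a mean of 3.54 to 3.69 log2 CPM (counts scaled to library size) in 8 libraries and of 4.72 in Saline 2, 6.52 in PNO 2, 4.89 in IUO 1 and 6.02 in IUO 2. Olfactory bulb markers averaged 3.92 to 4.72 log2 CPM in PNO 1, PNO 3, PNO 4 and IUO 3 and 1.51 to 2.17 in the other libraries. The neuronal list stood at 9.0 to 9.48 log2 CPM in all 12 libraries, lowest in IUO 4. In bulk tissue, fewer cells of a type and less RNA per cell cannot be told apart.

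The start sites of ribosomal protein genes are shown first because the pyrimidine tract can be read from them. RefSeq promoters (build GRCr8) were found by symbol for 60 of the 79 symbols, and 59 with a single entry were used. Each line gives 20 bases before the start site and the first 10 bases after it, with the unbroken run of C and T that covers the first transcribed base in capitals, for the 3 members with the highest mean level and for paralog pairs.
Rps15, chr7:10068106-10068135, minus strand: gcagccgctgacaccgCTTCCTTTTCCCag
Rpl19, chr10:83519044-83519073, plus strand: gagcccgcgaccagcaagCTCTTTCCTTTC
Rplp0, chr12:46718381-46718410, minus strand: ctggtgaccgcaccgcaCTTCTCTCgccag
Rps27, chr2:177964597-177964626, minus strand: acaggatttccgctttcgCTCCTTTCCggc
Rps27l, chr8:76443638-76443667, plus strand: ttatagtttattcatttgtcattatttgtg
Rpl22, chr5:168117941-168117970, plus strand: cctgcgtagtgcgCCCCCCTCCCTTTCTgc
Rpl22l1, chr2:113683176-113683205, plus strand: tgagcgctccgtggatatccggttccgagt

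Rps15, Rpl19, Rplp0, Rps27 and Rpl22 had such a run, while the annotated starts of Rps27l and Rpl22l1 had none. Over the family, 20 of 59 promoters (33.9%) had C at the first base followed by at least 4 more C or T, compared with 2.63% of 33469 promoters of all genes in the same reference. A run of at least 5 C or T covering the first base was present in 33 of 59 (55.9%) and in 12% of all promoters. Within the whole 300 bases and on both strands, ACTTCCG stood in 16 of 59 (27.1%, against 6.32% of all), and in 1 of those 16 it overlapped the pyrimidine run. The letters AAGATGGC were found in 5 of 59 (8.47%, against 3.17%), and TATAAA in 8 of 59 (13.6%, against 14.2%). These are matches of letters and depend on where RefSeq sets the start.

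The level of a row was read in FPKM, fragment counts divided by gene length and by library size. Of the deposited scales only FPKM allows for length when genes are compared, and it depends on the length counted for each row. Rps15, a small subunit protein near the decoding site, had the highest mean over the 12 libraries, 430 FPKM (range 339 to 668). Rpl19 of the large subunit followed with 387 FPKM, then the stalk protein Rplp0 with 304 FPKM. The Rpl9 row on chromosome 14 averaged 300.2 FPKM and Rps3a 256 FPKM. By group, Rps15 measured 433 ± 44.3 FPKM in Saline, 400 ± 32.7 in PNO and 456 ± 152 in IUO (SD, n = 4 in each), so these differences were smaller than the spread among the IUO libraries. Of the 105 rows, 40 averaged at least 100 FPKM, 38 lay between 10 and 100, and 27 fell below 10.

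The rows were of different kinds. A split was made, after the values were seen, at a genomic span of 1000 bases: 73 rows spanned more (the shortest 1112 bases) and 32 spanned less (the longest 929 bases), as intronless copies do. The longer rows had a median of 111 FPKM and the shorter rows of 5.07 FPKM, beside 6.16 FPKM over all 14170 genes tested. Large subunit rows of the longer kind had a median of 118 FPKM (n = 35), small subunit rows of 104 FPKM (n = 29) and the stalk rows of 157 FPKM (n = 3). Short rows with high levels were Rpl12 on the X chromosome (133 FPKM), Rpl21 on chromosome 13 (108 FPKM), Rps10l1 (89.0 FPKM) and Rpl30 on chromosome 10 (66.8 FPKM), singled out after their values were seen. More than 1 row was found for 15 symbols, 41 rows together. Rpl38 and Rpl39 each had 6, and 1 row took 88.8% of the Rpl38 counts and 89.5% of the Rpl39 counts.

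**Figure D1:**
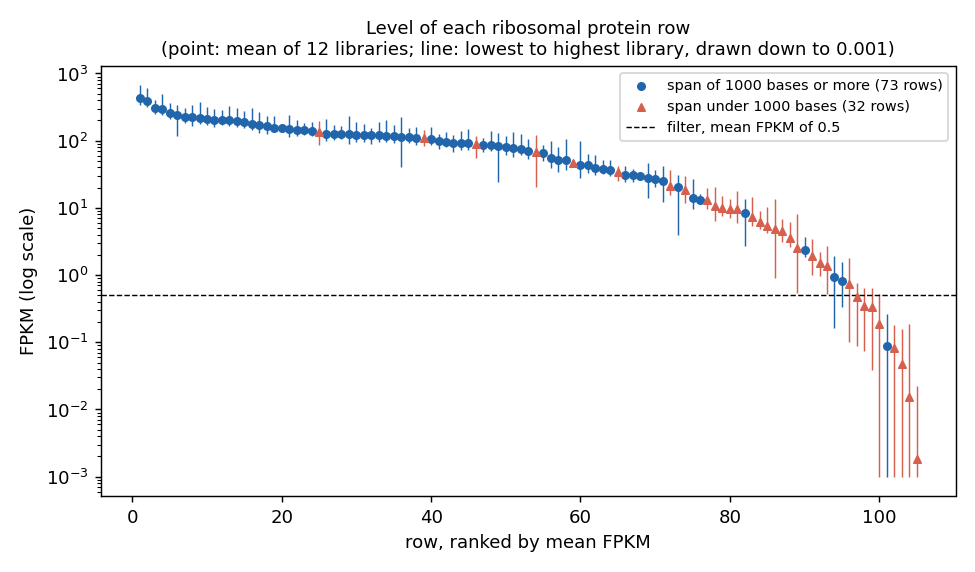
Mean FPKM of each of the 105 ribosomal protein rows (vertical log axis), ranked from highest to lowest, with a line from the lowest to the highest of the 12 libraries; circles are rows spanning 1000 bases or more and triangles shorter rows. The longer rows fill most of the upper ranks (median 111 FPKM), and the dashed line marks the filter at a mean of 0.5 FPKM, which 96 rows passed.

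RefSeq places several of these symbols elsewhere. Both Rpl35a rows of the table lie on chromosomes 5 and 6 and both Rpl37 rows on chromosomes 9 and 10, while RefSeq has Rpl35a on chromosome 11 and Rpl37 on chromosome 2. Where a symbol has several near-identical rows, the counting may have divided reads among them, so the values of single copies are uncertain. The row named Rps18 carries the description of another gene, B3galt4, in the table, and that named Rps19 the description of an Rps19-like gene. Positions of rows are those deposited, whose genome build is not given in the sources used here, and they are not interchangeable with the GRCr8 positions above.

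Of the 105 rows, 96 passed the filter of a mean of 0.5 FPKM and were tested (72 longer and 24 shorter rows). The lowest kept was Rpl39 on chromosome 20 with 0.741 FPKM, and the highest left out was Rpl39 on chromosome 7 with 0.472 FPKM. The lowest of all was an Rpl38 row on chromosome 7, at 0.00185 FPKM, which held 1 count over the 12 libraries. An Rpl30 row of 156 bases on chromosome 10 (0.0153 FPKM), a second Rps6 row on chromosome 5 (0.0476 FPKM), Rpl30l1 (0.0836 FPKM) and Rpl39l, a paralog of Rpl39 (0.0872 FPKM), completed the lowest 5. Among the libraries, Rpl39l reached at most 0.572 CPM, in PNO 2.

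The share of all counts taken by the 105 rows together was similar in most libraries and highest in IUO 4. It was 1.11%, 1.27%, 1.02% and 1.10% in Saline 1 to 4, and 1.08%, 0.94%, 1.13% and 1.03% in PNO 1 to 4. In IUO 1 to 4 it was 0.93%, 0.93%, 1.22% and 1.67%. The 3 groups overlapped, and the IUO group held both the lowest shares and the highest. Group means were 1.12% ± 0.10 in Saline, 1.04% ± 0.08 in PNO and 1.19% ± 0.35 in IUO (SD, n = 4 in each). Wilson intervals (95%) reached at most 0.0034 percentage points to either side, covering counting error only. The summed FPKM of the large subunit was 1.45 to 1.57 times that of the small subunit in every library.

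IUO 4 stood apart. It was the highest of the 12 libraries for 79 of the 96 tested rows (82.3%), whereas it was the highest for 21.6% of all genes tested. It was also the lowest library for 20% of all genes, beside 1 of the 96 rows (1.04%). Compared with the median of the other 11 libraries, 94 of 96 rows were higher in IUO 4, by a median of 0.63 log2 CPM, while over all genes that median was 0 and 49.9% were higher. Among the longer rows, 71 of 72 were higher there. By start site, the median gap was 0.62 log2 CPM over 16 rows whose start was C followed by at least 4 more C or T, and 0.65 log2 CPM over 31 rows with another start.

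Examples from both subunits show the size of that gap, the first 3 singled out after their values were seen. Rpl21 on chromosome 12, a large subunit protein, measured 310 CPM in IUO 4 against a median of 122 CPM (105 to 186) in the other 11 libraries. Rps20 on chromosome 5, of the small subunit, measured 132 CPM against a median of 63.3 CPM (49.7 to 81.2). Rps24 stood at 336 CPM against 177 CPM (161 to 239), and Rpl32 at 168 CPM against 89.7 CPM (79.7 to 115). For all 4, IUO 4 lay beyond the other 11 libraries. Rps19, whose loss of 1 copy causes Diamond-Blackfan anaemia in people, measured 192 CPM in IUO 4 and 76.0 to 120 CPM elsewhere. Rpl7a went the other way, with 81.7 CPM in IUO 4, the lowest of the 12, against a median of 119 CPM. Rpl7l1, Rpl10a and the Rpl12 row on chromosome 3 differed there by 0.06, 0.15 and 0.05 log2 CPM.

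Other measures moved with this library. The 13 mitochondrially encoded mRNAs took 13.3% of its counts, the lowest share of the 12 libraries (others 14.3% to 17.5%). Its neuronal marker list was lowest (9.0 log2 CPM) and its microglial list highest (5.33 log2 CPM, beside 4.63 to 5.32 in the others). Spearman's rho between gene length and a gene's deviation from its mean was −0.35 in IUO 4, across genes, and −0.28 to 0.31 in the other libraries. Ribosomal protein rows are short, with a median counted length of 1013 bases against 3111 over all genes tested. The part of these measures in the result was not tested.

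At the other end, IUO 2 was the lowest library for 31 of the 96 rows (32.3%, beside 9.64% of all genes tested). IUO 1 was lowest for 27 (28.1%, beside 5.72%) and PNO 2 for 18 (18.8%, beside 10.8%). These 3 libraries also had the highest striatal marker levels. Markers of mature oligodendrocytes averaged 9.31 to 9.72 log2 CPM in the same 3 and in Saline 2, and 8.39 to 8.82 in the other 8 libraries. Saline 2, the fourth library with raised striatal markers, had the second highest ribosomal share, 1.27%. The part of these other cells in the ribosomal levels was not tested directly, and each comparison was also made without the 4 libraries.

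**Figure D2:**
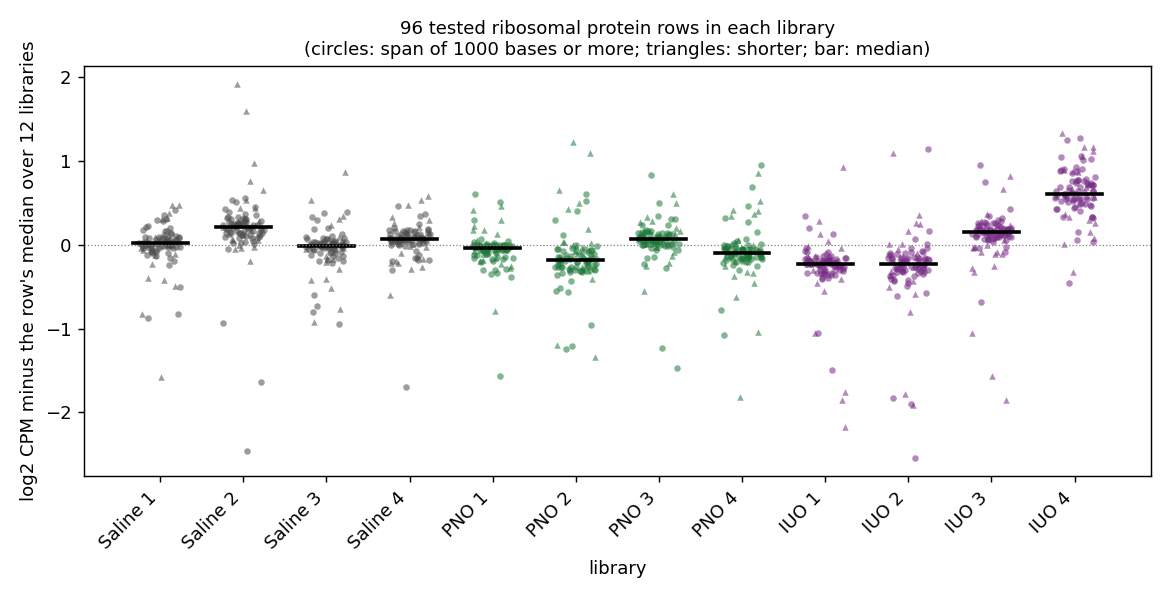
Level of each of the 96 tested rows in each library, as log2 CPM minus the row's median over the 12 libraries (vertical axis), with a bar at the median; circles are rows spanning 1000 bases or more and triangles shorter rows. Most points of IUO 4 lie above 0, while those of PNO 1, PNO 2, PNO 4, IUO 1 and IUO 2 lie mostly below.

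The comparison of PNO with Saline asks how exposure after birth was reflected in these genes. No ribosomal protein row passed the test. Most rows had slightly lower values in PNO: 78 of 96 were lower and 18 higher, beside 6908 and 7262 of all 14170 genes tested. The median log2 fold change of the rows was −0.15, beside 0.01 over all genes tested. The pattern was alike in both subunits among the longer canonical rows. Lower values were found in 31 of 35 large subunit rows (median −0.14) and 25 of 29 small subunit rows (median −0.16). All 3 stalk rows were lower too (median −0.13). Rows of a library tend to move together, so rows and subunits are not independent observations. Among all genes, 0% were called at an adjusted p under 0.05 by edgeR's quasi-likelihood test, and 0 of the 96 rows were. DESeq2, which called 119 genes in this comparison, and limma on log2(FPKM + 0.5) also called 0 of the 96. At an unadjusted p under 0.05, edgeR counted 3 of 96 rows (3.12%) against 11% of all genes, DESeq2 3 and limma 3.

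Rpl17, a large subunit protein that lines the tunnel through which the new chain leaves, had the largest lower value among rows of the longer kind. Its 4 Saline libraries measured 202, 241, 144 and 225 CPM, and the PNO libraries measured 157, 84.4, 157 and 146 CPM. The groups overlapped at Saline 3, and PNO 2 was far below the other 3. The log2 fold change was −0.58 ± 0.20 (SE; 95% interval −1.02 to −0.14; edgeR, Benjamini-Hochberg adjusted p = 0.38), and without PNO 2 it was −0.41. Rpl6 had a log2 fold change of −0.29 ± 0.15 and Rpl10a, the protein of the L1 stalk, of −0.17 ± 0.09 (edgeR, Benjamini-Hochberg adjusted p = 0.486 and 0.516).

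Both rows named Rpl35a were higher in PNO. RefSeq places the gene on chromosome 11, so both rows may be copies. They may also share reads, so they are not separate measurements of the gene. Rpl35a is a large subunit protein, mutated in some people with Diamond-Blackfan anaemia. The row on chromosome 5 (158537765 to 158544128, plus strand) measured 7.10, 13.4, 7.22 and 10.2 CPM in Saline 1 to 4 and 11.8, 19.1, 22.3 and 20.3 CPM in PNO 1 to 4. Only PNO 1 lay within the Saline range. Its log2 fold change was 0.95 ± 0.32 (95% interval 0.26 to 1.64; edgeR, Benjamini-Hochberg adjusted p = 0.355). The row on chromosome 6, with a span of 403 bases, measured 5.09 to 6.89 CPM in Saline and 7.40 to 10.9 CPM in PNO, with no overlap. Its log2 fold change was 0.68 ± 0.25 (edgeR, Benjamini-Hochberg adjusted p = 0.404). In both rows IUO 3 and IUO 4 also lay above every Saline library, and IUO 1 and IUO 2 lay within the Saline range. The other rows at an unadjusted p under 0.05 in either direction numbered 1, Rpl17.

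In the small subunit, Rps10 measured 112, 113, 114 and 104 CPM in Saline and 91.8, 86.7, 95.3 and 80.7 CPM in PNO. Every PNO library was below every Saline library. The log2 fold change of Rps10, which is ubiquitinated on stalled ribosomes, was −0.32 ± 0.16 (edgeR, Benjamini-Hochberg adjusted p = 0.485). Rps27 measured 40.7, 52.1, 42.0 and 46.9 CPM in Saline and 37.8, 35.6, 38.7 and 33.6 CPM in PNO, again without overlap, with a log2 fold change of −0.32 ± 0.17 (edgeR, Benjamini-Hochberg adjusted p = 0.503). Rpl23, Rpl22l1 and Rpl38 on chromosome 10 were the other rows whose PNO libraries all lay lower; Rpl23 is named after its values were seen. These 5 were 5.21% of the 96 rows, beside 4.66% of all genes; the Rpl35a row on chromosome 6 was the single row with all PNO libraries higher (1.04%, beside 5.17%). Both shares were near or under the background.

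Rps6, the substrate of S6 kinase downstream of mTOR, measured 274, 297, 235 and 266 CPM in Saline 1 to 4, and 237, 212, 239 and 233 CPM in PNO 1 to 4. Its log2 fold change was −0.22 ± 0.17. Rpsa, a small subunit protein also known as the laminin receptor, had a log2 fold change of 0.00 (95% interval −0.32 to 0.33). Rpl5 and Rpl11, which form a particle with 5S rRNA that binds Mdm2, had −0.08 ± 0.18 and −0.13 ± 0.19. The stalk proteins Rplp0, Rplp1 and Rplp2, which recruit elongation factors, had −0.10, −0.13 and −0.18, and all 3 intervals included 0. For 79 of the 96 rows the 95% interval lay within a 2-fold change in either direction, with a median half-width of 0.37 on the log2 scale in the longer rows.

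Marker lists of other cells moved in both directions in PNO, with 0 genes called by edgeR. Of 8 microglial genes 7 were lower (median −0.27, 2 at an unadjusted p under 0.05). Of 8 astrocyte genes 7 were lower (median −0.15, 1 at an unadjusted p under 0.05). All 11 striatal genes were higher (median 0.94), as were all 4 blood genes (median 0.28). Of 8 bulb genes 7 were higher (median 1.96, 5 at an unadjusted p under 0.05). The neuronal, oligodendrocyte, endothelial, meningeal and choroid plexus lists had medians of −0.04 to 0.10. Their part in the ribosomal values was not tested. The lower median in PNO moved with the setting. With a trend on gene length removed it was −0.04 (66 of 96 lower), without the 4 libraries high in striatal markers −0.06 (72 of 96 lower), and with scores of the striatal and bulb markers in the model 0.10 (23 of 96 lower). With only Saline and PNO in the fit it was −0.16, and 19 rows had an unadjusted p under 0.05 (17 lower; 15.9% of all genes), with a smallest edgeR Benjamini-Hochberg adjusted p of 0.0888 among the rows.

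The comparison of IUO with Saline asks the same of the in utero exposure, against the same 4 Saline libraries as the PNO comparison. Here, too, no row passed the test, and the values rested on 1 library. With all 4 IUO libraries, 65 of 96 rows were higher and 31 lower, beside 7998 and 6172 of all 14170 genes tested. The median log2 fold change of the rows was 0.06 (0.02 over all genes). Without IUO 4, 84 of 96 were lower and the median was −0.17. Among all genes 0% were called by edgeR at an adjusted p under 0.05, and 0 of the 96 rows were; DESeq2 and limma also called 0 of the 96. At an unadjusted p under 0.05, edgeR counted 4 of 96 rows (4.17%) beside 4.02% of all genes, DESeq2 4 and limma 4. No row had groups without overlap in either direction, beside 1.15% of all genes with every IUO library higher and 1.03% with every IUO library lower.

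For most subunits the IUO values straddled the Saline values. Rplp0 measured 433, 460, 410 and 429 CPM in Saline 1 to 4 and 343, 351, 449 and 557 CPM in IUO 1 to 4. IUO 1 and IUO 2 were below all Saline libraries and IUO 4 above them, and the log2 fold change was −0.03 ± 0.14. Rpl19 measured 342, 382, 312 and 364 CPM in Saline 1 to 4 and 287, 278, 355 and 528 CPM in IUO 1 to 4, in the same order around the controls. Rps6 measured 208, 214, 263 and 390 CPM in IUO 1 to 4, and its log2 fold change from Saline was 0.00 ± 0.17. Rpl5, Rpl11 and Rps19 had log2 fold changes of 0.16 ± 0.18, 0.11 ± 0.19 and 0.12 ± 0.24. The group SD of Rps19 was 54.0 CPM in IUO against 10.2 CPM in Saline.

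**Figure D3:**
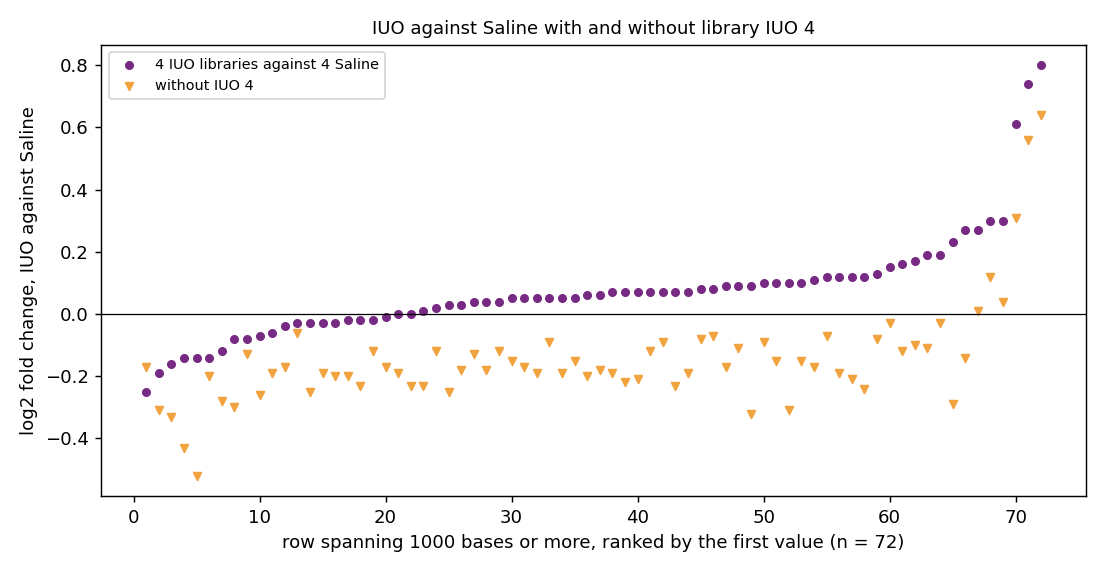
Log2 fold change of IUO against Saline (vertical axis) for the 72 tested rows spanning 1000 bases or more, ranked by the value from all 4 IUO libraries (circles), with the value without IUO 4 (triangles). The circles centre a little above 0 (median 0.06), and nearly all triangles lie below 0.

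The smallest p-values in IUO belonged to copies. The Rpl38 row on chromosome 2 (184905204 to 184905416, minus strand) measured 1.02, 3.11, 0.989 and 0.953 CPM in Saline 1 to 4 and 0.219, 0.265, 0.487 and 1.09 CPM in IUO 1 to 4. IUO 1 to 3 were below every Saline library, and IUO 4 was within the Saline range. The log2 fold change was −1.56 ± 0.51 (95% interval −2.66 to −0.46; edgeR, Benjamini-Hochberg adjusted p = 0.998), and −0.94 without Saline 2. A row on chromosome 3 followed the same order, at 0.856, 3.56, 0.694 and 0.777 CPM in Saline and 0.252, 0.265, 0.252 and 1.18 CPM in IUO (−1.59 ± 0.63, and −0.67 without Saline 2). The main Rpl38 row, on chromosome 10, measured 21.7, 20.6, 21.7 and 21.5 CPM in Saline and 15.7, 13.2, 23.4 and 47.7 CPM in IUO, a log2 fold change of 0.23 ± 0.30. Rpl38 is known for a role in the translation of Hox messages in mouse embryos.

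The 2 other rows at an unadjusted p under 0.05 were those named Rpl35a, which may be copies. Their log2 fold changes were 0.80 ± 0.32 on chromosome 5 and 0.61 ± 0.25 on chromosome 6 (edgeR, Benjamini-Hochberg adjusted p = 0.998 for both). Next came Rpl10l, a paralog of Rpl10 (0.74 ± 0.43), and Rps12l2, a copy of Rps12 (0.61 ± 0.35). Rpl7a was lower, with 98.0, 119, 128 and 122 CPM in Saline and 106, 83.4, 123 and 81.7 CPM in IUO (−0.25 ± 0.15). The groups overlapped in each of these. Rpl14 had 0.19 ± 0.16 and turned to −0.03 without IUO 4. For 83 of 96 rows the 95% interval lay within a 2-fold change in either direction.

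Within IUO, the 2 libraries with raised striatal markers (IUO 1 and IUO 2) had a ribosomal share of 0.93% each, and IUO 3 and IUO 4, without them, had 1.22% and 1.67%. When the 4 libraries high in striatal markers were left out, the median log2 fold change from Saline was 0.39 (5 of 96 rows lower), and 46 rows had an unadjusted p under 0.05, all higher, beside 7.16% of all genes; 0 rows were called by edgeR. That fit held 2 IUO and 3 Saline libraries. All 8 oligodendrocyte markers were higher in IUO than in Saline (median 0.26, 0 called by edgeR, 0 at an unadjusted p under 0.05); their part in these values was not tested. With both marker scores in the model the median was 0.20 (14 of 96 rows lower).

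IUO and PNO were also compared directly. In this comparison 82 of 96 rows were higher in IUO and 14 lower, beside 7194 and 6976 of all 14170 genes tested. The median log2 fold change of the rows was 0.20 (0 over all genes), and it was −0.02 without IUO 4. No row was called by edgeR, as 0% of all genes were, and none by DESeq2 or limma. At an unadjusted p under 0.05, edgeR counted 3 rows (3.12%) against 6.73% of all genes, DESeq2 4 and limma 3. The 3 rows were the Rpl38 copies on chromosome 2 (−1.36 ± 0.51) and chromosome 3 (−1.58 ± 0.63), and Rps27l (0.45 ± 0.21; edgeR, Benjamini-Hochberg adjusted p = 0.714). No row had groups without overlap, beside 1.85% of all genes with every IUO library higher and 1.78% with every IUO library lower. Without IUO 1, 19 rows had an unadjusted p under 0.05, and without IUO 2, 15, all of them higher in IUO (10.1% and 8.02% of all genes). When the 4 libraries high in striatal markers were left out, only IUO 3 and IUO 4 remained in IUO. The median was then 0.44, and 61 of the 96 rows had an unadjusted p under 0.05, all higher in IUO. Among all genes 13.6% had such a p, and 0 rows were called by edgeR. With a trend on gene length removed the median was 0.08 (27 of 96 rows lower), and 4 rows had an unadjusted p under 0.05, all lower (6.5% of all genes).

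Rows varied between libraries to different degrees, irrespective of group. After subtraction of each library's median over the rows, the SD of log2 CPM over the 12 libraries had a median of 0.11 in the longer rows and 0.30 in the shorter rows. It was largest for the Rpl38 row on chromosome 3 (1.11), the Rpl30 row on chromosome 7 (0.95), the Rpl38 row on chromosome 2 (0.95), Rpl3l (0.94) and Rps28 (0.80). Rps28, a small subunit protein, measured 1.43 CPM in Saline 2 and 5.41 to 11.5 CPM in the other 11 libraries.

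Rpl30, a large subunit protein that can bind its own transcript, had a long row on chromosome 7 (65645991 to 65651363, minus strand, annotated as lncRNA; 8.35 FPKM on average) and a short row on chromosome 10 (36831500 to 36831990, minus strand; 66.8 FPKM). The chromosome 10 row took 15.7% to 24.2% of their sum in Saline 3, PNO 2, PNO 4 and IUO 1. It took 42.2% to 44.5% in Saline 1, PNO 3, IUO 3 and IUO 4, and 75.8% to 80.7% in Saline 2, Saline 4, PNO 1 and IUO 2. The shares thus fell in 3 separate ranges of 4 libraries each, and each range held libraries of all 3 groups. The sum of both rows ran from 56.1 to 116 CPM, the chromosome 7 row from 13.5 to 66.8 CPM and the chromosome 10 row from 10.7 to 64.2 CPM. Mean counts were similar, 2402.9 on chromosome 7 and 2039.5 on chromosome 10. The gap in FPKM came with counted lengths of 4939 and 531 bases.

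Rps12 of the small subunit and its copy Rps12l2, both on chromosome 1, were singled out after their values were seen. Rps12 measured 28.4 CPM in PNO 2 and 18 CPM in IUO 2 and lay between 52.8 and 98.3 CPM in the other 10 libraries. Rps12l2 was highest in the same 2 libraries, 11.0 and 10.02 CPM, against 3.42 to 6.99 CPM elsewhere. It made 27.9% and 35.8% of their sum there and 4.99% to 9.88% in the others. The sum itself was lowest in these 2 libraries, 39.4 and 28.0 CPM.

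Rps27a, whose product is a fusion of ubiquitin with a small subunit protein, ranged widely in every group. It measured 66.0, 172, 62.8 and 108 CPM in Saline, 171, 52.1, 51.3 and 166 CPM in PNO, and 42.8, 135, 203 and 244 CPM in IUO. The groups overlapped throughout, and the log2 fold changes from Saline were 0.11 ± 0.53 in PNO and 0.61 ± 0.53 in IUO.

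**Figure D4:**
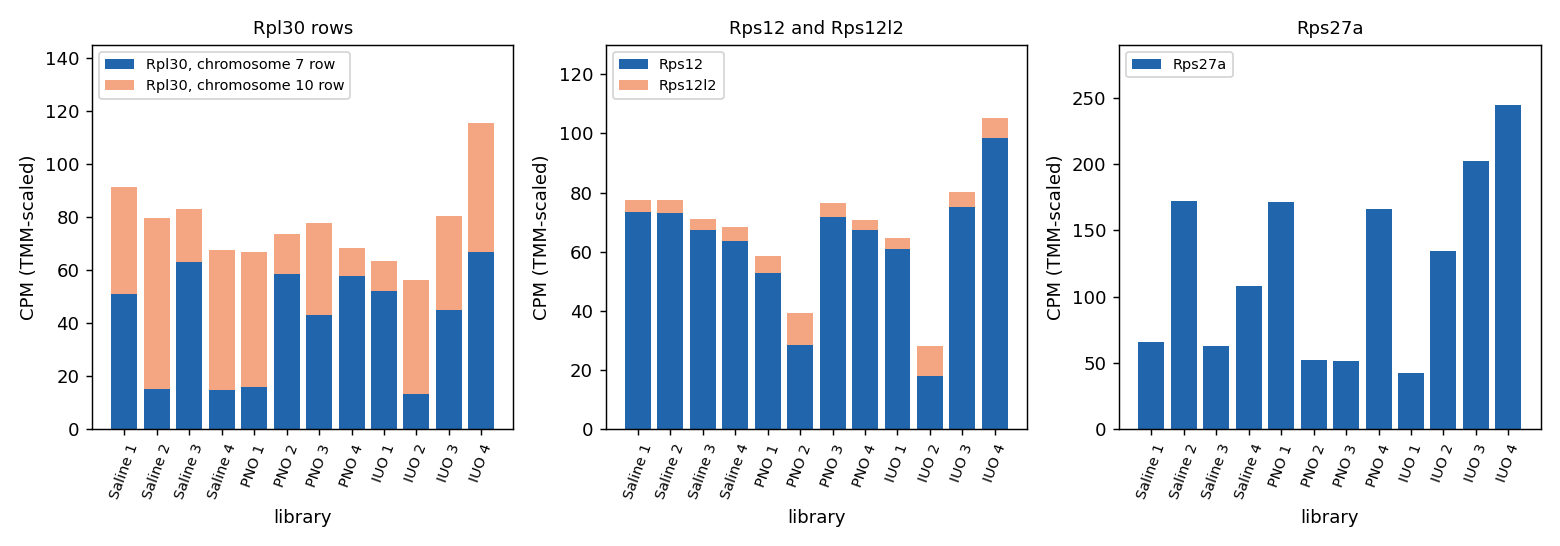
CPM in each of the 12 libraries (bars, axis from 0) for the chromosome 7 and chromosome 10 rows of Rpl30 stacked, for Rps12 and Rps12l2 stacked, and for Rps27a. The chromosome 10 share of Rpl30 takes 3 levels across the libraries of every group, Rps12 is low in PNO 2 and IUO 2, and Rps27a runs from 42.8 to 244 CPM.

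Paralogs were compared with their counterparts in FPKM. Rpl22l1, paralog of Rpl22, was expressed at 1.06 ± 0.144 times the FPKM of Rpl22 in Saline, 0.926 ± 0.143 in PNO and 1.10 ± 0.388 in IUO (SD, n = 4 in each). The pair thus stood at similar levels in FPKM, which rests on unequal counted lengths, 4012 bases for Rpl22 and 1606 for Rpl22l1. In mean counts Rpl22 was higher, 3089.2 against 1286.6. Rpl22l1 measured 21.7, 23.2, 22.3 and 26.7 CPM in Saline, 19.4, 16.7, 17.9 and 20.3 CPM in PNO, and 16.3, 15.3, 25.1 and 43.8 CPM in IUO. All PNO libraries were below the Saline libraries, and IUO 4 was above the other 11; the log2 fold change of PNO from Saline was −0.34 ± 0.26 (edgeR, Benjamini-Hochberg adjusted p = 0.637). Rpl22 itself measured 46.7 to 61.6 CPM in the other 11 libraries and 66.1 CPM in IUO 4.

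Rps27l, which p53 can induce, stood at 0.0340 ± 0.0050 times the FPKM of Rps27 in Saline, 0.0345 ± 0.00641 in PNO and 0.0421 ± 0.00201 in IUO. Rpl3l, a paralog of Rpl3 best known from striated muscle, stood at 0.00136 to 0.0143 times the FPKM of Rpl3 over the 12 libraries. Rpl3 itself, which sits close to the peptidyl transferase centre, had log2 fold changes from Saline of 0.02 ± 0.13 in PNO and 0.08 ± 0.13 in IUO. Rpl7l1, named for its likeness to Rpl7, had 0.01 ± 0.08 and −0.03 ± 0.08, with the narrowest intervals among the paralogs. Rps4x on the X chromosome had −0.19 ± 0.15 and −0.02 ± 0.15, and its short row on chromosome 4 −0.01 ± 0.08 and −0.09 ± 0.08. Rpl39 on the X chromosome, at the end of the exit tunnel, had −0.17 ± 0.18 and −0.07 ± 0.18.

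Other genes of translation were read from 7 lists with 117 tested members, of which edgeR called 0 in each comparison. At an unadjusted p under 0.05 edgeR counted 9 of the 117 in PNO against Saline, beside 11% of all genes. It counted 2 of the 117 in IUO against Saline (4.02% of all genes) and 5 in IUO against PNO (6.73% of all genes). In the same lists limma called 0 and DESeq2 1, Rheb in PNO against Saline. In PNO against Saline, 11 of 16 elongation factors and other genes with a terminal oligopyrimidine tract were lower and 5 higher (median −0.10), among them Btf3 (−0.27 ± 0.13), Npm1 (−0.18 ± 0.09) and Eef1b2 (−0.32 ± 0.17). Of 21 initiation factors 17 were lower and 4 higher (median −0.08), and of 34 ribosome biogenesis factors 24 were lower and 10 higher (median −0.06). Fau and Rack1, ribosomal proteins that the symbol rule does not take, had −0.20 ± 0.18 and −0.06 ± 0.11.

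Of 20 genes of the mTOR pathway, 13 were higher and 7 lower in PNO (median 0.07). The list holds activators and inhibitors of mTOR signalling, so these counts give no direction for the pathway. At an unadjusted p under 0.05 edgeR counted 5 of the 20 higher and 1 lower, beside 11% of all genes in either direction. Rheb, the GTPase that activates mTOR complex 1, measured 133 ± 9.12 CPM in Saline and 105 ± 5.56 CPM in PNO (−0.33 ± 0.08; edgeR, Benjamini-Hochberg adjusted p = 0.305). Rptor, a subunit of that complex, measured 58.5 ± 8.89 CPM and 74.0 ± 3.19 CPM (0.34 ± 0.12; edgeR, Benjamini-Hochberg adjusted p = 0.38). RNA polymerase I genes had a median of 0.00 (7 of 15 higher) and ribosome rescue factors of 0.06 (7 of 9 higher).

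In IUO against Saline the medians were 0.00 for elongation factors and oligopyrimidine-tract genes (8 of 16 higher), −0.01 for initiation factors (8 of 21 higher), 0.01 for biogenesis factors (17 of 34 higher) and 0.05 for mTOR genes (12 of 20 higher). The remaining lists had 0.04 for RNA polymerase I (9 of 15 higher), 0.03 for rescue factors (5 of 9 higher) and 0.07 for Fau and Rack1 (both higher). Eif3c, an initiation factor subunit, had −0.57 ± 0.22 and Rheb −0.21 ± 0.08 (edgeR, Benjamini-Hochberg adjusted p = 0.998 for both). IUO 4 again had the highest mean of the 12 libraries for the elongation and oligopyrimidine-tract list (7.83 log2 CPM, others 7.39 to 7.59), the initiation list (6.60, others 6.29 to 6.48) and the biogenesis list (5.26, others 4.93 to 5.13). Its mTOR list was the lowest of the 12, at 5.26 log2 CPM beside 5.29 to 5.48.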

How the data were processed

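Whole-number counts and FPKM per gene were deposited by the authors for each of the 12 libraries. Stranded poly(A) libraries were made, per the labels' protocols, and HISAT2 and StringTie were used, per the submitters' processing notes; their versions, the build and the annotation are, in the sources used here, not given. Counts were tested with edgeR 4.0.16 (quasi-likelihood F test, TMM factors, R 4.3.3) in 1 model of 3 groups over the 14170 genes that averaged 0.5 FPKM or more. Tests were two-sided, with Benjamini-Hochberg adjustment over all genes tested and a threshold of 0.05. CPM used TMM-scaled totals, log2 CPM a prior count of 2. Total counts of 49227533 to 60672246 make counting error small except in rows with few counts. The procedure was tested on simulated counts with larger changes in single genes, drawn independently. That test does not cover small shifts shared by many rows.

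Alternatives were DESeq2 1.42.0, limma 3.58.1 on log2(FPKM + 0.5), other scalings, filters, covariates and sets of libraries. Named rows were the 10 with the smallest p in each comparison, the 5 highest and 5 lowest in FPKM, the 5 with the largest spread and a set of subunits and paralogs; others are said to be singled out. For other translation genes, up to 3 per list were named. Libraries with a marker list more than 0.5 log2 CPM above its median were taken as raised. Members and lists were chosen with earlier results of these data known. Promoters came from RefSeq (GRCr8), matched by symbol. Python 3.11.15 with matplotlib 3.10.9 and pandas 2.3.3 was used for sequences and figures.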

Additional observations from a re-analysis of the deposited data

Results flagged for a closer look

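Single libraries stood far from the other 3 of their group for 5 rows. The distance of the extreme library to its neighbour exceeded Dixon's 95% limit in 6 of 135 groups (4.44%). Chance alone flags about 1 in 20 among independent groups that were not selected. Some of these rows were picked for their spread or small p-value, and rows of a library move together. The 2 rates therefore cannot be compared directly. In PNO, Rpl17 measured 84.4 CPM in PNO 2 (others 146 to 157), and Rps27l measured 2.82 CPM in PNO 4 (others 2.22 to 2.26). In Saline 2, the Rpl38 rows on chromosomes 2 and 3 measured 3.11 CPM (others 0.953 to 1.02) and 3.56 CPM (others 0.694 to 0.856). In IUO 4, the Rpl38 row on chromosome 3 measured 1.18 CPM (others 0.252 to 0.265), and the Rps20 row on chromosome 3 measured 5.48 CPM (others 2.36 to 2.77).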

How the results depend on the processing

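The count of called rows was 0 in all 3 comparisons under each of the 29 alternatives, leaving out each library in turn included (0 to 0). The median log2 fold change of PNO against Saline stayed below 0 in 29 of 30 alternatives and was 0.10 with both marker scores in the model. Some alternatives, such as leaving out an IUO library, kept the same Saline and PNO libraries and could hardly move it. That count therefore overstates how stable the median was. With a length trend removed, or without the libraries high in striatal markers, it was smaller in size, as given above. Leaving out 1 library gave −0.22 to −0.10. Without the libraries high in striatal markers, only IUO 3 and IUO 4 remained in IUO. The median was then 0.39 for IUO against Saline and 0.44 for IUO against PNO. Leaving out 1 library gave −0.17 (without IUO 4) to 0.16 for the first and −0.02 (without IUO 4) to 0.30 for the second. The cause was not tested. Single rows were recomputed only where they had the smallest p-values of a comparison in the main fit. Of the 857 values of these rows, 1 reversed: Rpl14 in IUO against Saline, −0.03 without IUO 4 and up to 0.31 with another library left out. Rows picked in this way from the same data rarely change sign, so the count does not show how stable the other rows were. Over all 96 rows, the median of IUO against Saline changed from 0.06 to −0.17 without IUO 4. With replicate number as a block the medians were −0.15, 0.02 and 0.16 and 0 rows were called. The labels tie no number to a shared source, and no pairing was assumed in the main fit. Same-numbered libraries correlated at 0.02 to 0.41, and 8 of 12 libraries correlated best with their own number. The value of 0.41 was that of IUO 2 with PNO 2, the 2 libraries with the highest striatal markers. Whether a number marks a shared source was not tested. Leaving out the bulb-raised libraries left 1 PNO library (median −0.29 against Saline, its spread assumed like that of the others).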
